A study of Mus musculus with 6 samples.

Results

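Genes that carry long-chain fatty acids into the liver cell, bind them and activate them were followed in the livers of soy-fed and control mice. The 10 genes are *Cd36*, *Slc27a2* and *Slc27a4* (uptake), *Fabp1*, *Fabp2* and *Fabp4* (binding), and *Acsl1*, *Acsl3*, *Acsl4* and *Acsl5* (activation). They are defined by name and function and not by a threshold on their values, although earlier results of these arrays were known when they were chosen, and all 10 were among the 22911 genes that could be named on the array, with 16 of its 56605 probes. Hepatic gene expression was measured with 1-colour Agilent arrays, 1 array per mouse, in 3 control and 3 soy mice. All were male and were 12 weeks old when the diets began. All were kept on a cycle of 12 hours of light and 12 hours of dark. The control group ate 100% granulated regular food, and the soy group ate a mixture of 75% regular food and 25% soy bean powder, for 28 days. No strain, transgene or other treatment is named in the labels or methods. The soy mixture replaced part of the regular food, so the addition of soy and the dilution of regular food cannot be told apart. By the paper's feed composition the soy food also held more lipid and protein and less available carbohydrate, which cannot be told apart either.

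Long-chain fatty acids reach the liver bound to albumin or released from lipoproteins. Membrane proteins such as *Cd36* and the fatty acid transport proteins (*Slc27a* genes) help them to enter, fatty acid binding proteins (*Fabp* genes) hold them in the cytosol, and long-chain acyl-CoA synthetases (*Acsl* genes) join them to coenzyme A, which is needed before they can be burned or built into triglycerides, phospholipids and cholesteryl esters. The nuclear receptor PPARA, which fatty acids activate, is a known regulator of several of these genes in the liver.

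The question here was whether the soy diet shifted this first stage of fatty acid handling. None of the 10 genes passed the test. To pass, at least 1 probe of a gene had to show more than 1.5 times the control signal, or less than 0.66 of it, at an adjusted p below 0.05. Over the whole array 122 of 22911 genes (0.532%) passed. Each gene is described below by its brightest probe, and values are normalized signals on the log2 scale. Of the 10 genes 4 were higher and 6 lower in the soy group, with a median change of -0.03, beside a median of -0.01 over all named genes. At an unadjusted p under 0.05 there were 3 of the 10 (*Acsl1* and *Acsl3* higher, *Acsl5* lower), where 14.3% of all genes (7.22% higher, 7.04% lower) and 20.1% of the 13513 genes that were well above background on all 6 arrays reached that p. These 3 were also the genes without overlap between the groups, as were 20.5% of all genes (9.68% above and 10.8% below all controls) and 25.6% of those well above background (13.3% above, 12.3% below). For 4 of the 10, *Slc27a2*, *Slc27a4*, *Fabp1* and *Acsl4*, the 95% interval of the change lay inside the fold thresholds, which are 0.58 and -0.60 on the log2 scale.

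**Figure D1:**
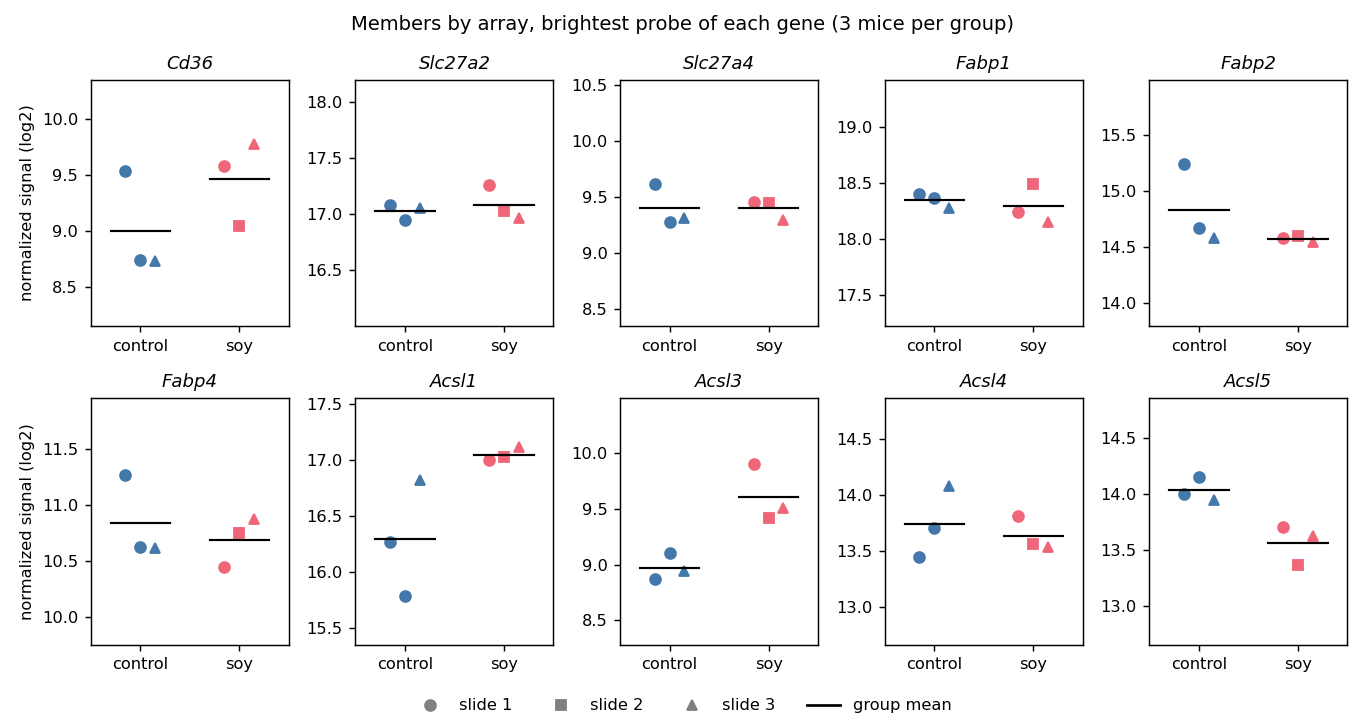
Normalized signal (log2) of the brightest probe of each of the 10 genes, with 1 point per mouse (control in blue, soy in red), the shape giving the slide and the line the group mean of 3 mice. The groups stand apart for *Acsl1*, *Acsl3* and *Acsl5* and overlap for the other 7.

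The arrays lay on 3 slides. Control 1, control 2 and soy 1 shared slide 1, and control 3 and soy 3 shared slide 3. Soy 2 was alone on slide 2. Each gene is therefore also given within slides 1 and 3 and with slide as a block. Soy 2 adds nothing to the block value, which is a weighted mean of the values within slides 1 and 3. A call lost with this block can come from the loss of that mouse as well as from the slides, which was not tested. The tissue was liver by its markers, with all 11 hepatocyte markers well above background on all 6 arrays and *Serpina1a* the brightest. Their summed level was 21.45, 21.43 and 21.36 in control mice and 21.34, 21.28 and 21.15 in soy mice. All 3 soy sums were below the control sums by a small margin, 10 of the 11 markers were lower, and 4 of them (*Ass1*, *Cps1*, *G6pc* and *Tat*) reached an unadjusted p under 0.05 (7.04% of all genes did so and were lower), with none passing. The part of this shift in the values below was not tested, and in bulk liver fewer cells of a type and less RNA per cell cannot be told apart.

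Uptake was measured on *Cd36* (NM_007643), a scavenger receptor that takes up fatty acids and is known to be higher in fatty liver. Its signal was 9.54, 8.74 and 8.73 in control 1, 2 and 3, and 9.58, 9.04 and 9.77 in soy 1, 2 and 3. Soy 1 and soy 3 were high, but control 1 was nearly as high as soy 1, so the groups overlapped. The change of 0.46 (SE 0.27, 1.38-fold, limma adjusted p = 0.567) did not exceed the spread, and its 95% interval ran from -0.16 to 1.08. With 1 array left out it ranged from 0.31 to 0.73. On the slides that held both groups it was 0.44 on slide 1 and 1.05 on slide 3, and with slide as a block it was 0.70 (adjusted p = 0.447). Its interval was the widest among the brightest probes of the 10 genes, so that *Cd36* is poorly measured here and neither no change nor a rise above 1.5-fold lies outside it.

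*Slc27a2* (NM_011978) encodes FATP2, the liver's transport protein and very long-chain acyl-CoA synthetase. Control mice had 17.09, 16.95 and 17.06 and soy mice 17.26, 17.03 and 16.96. These 6 values lay close together, with soy 1 above the controls and the other 2 soy mice among them. The change was 0.05 (SE 0.11, adjusted p = 0.896, 95% interval -0.21 to 0.31). It had no settled sign, as it was 0.24 on slide 1, -0.10 on slide 3 and -0.03 without soy 1.

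*Slc27a4* (NM_011989) encodes FATP4, known best for fatty acid uptake in the gut and skin. Its signal was 9.62, 9.28 and 9.32 in control mice and 9.46, 9.45 and 9.30 in soy mice. The groups overlapped throughout. The change was -0.0035 (SE 0.12, adjusted p = 0.995, 95% interval -0.29 to 0.28), with 0.01 on slide 1 and -0.02 on slide 3, and it turned to 0.10 without control 1 and 0.05 without soy 3. A second probe of the gene was well above background on 2 of 3 control and 0 of 3 soy arrays and adds little.

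Binding in the cytosol was measured on *Fabp1* (NM_017399), the liver form and a main fatty acid carrier of the hepatocyte. Its signal was 18.40, 18.37 and 18.28 in control mice and 18.24, 18.49 and 18.15 in soy mice. Soy 2 was the highest of all mice and soy 3 the lowest, and the groups overlapped. The change was -0.05 (SE 0.12, adjusted p = 0.903), with a 95% interval of -0.32 to 0.22, and it was -0.14 on slide 1, -0.12 on slide 3 and 0.02 without soy 3. No spot of the 16 probes was saturated on any array.

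The regions before the starts of *Fabp1*, *Cd36* and *Slc27a2* are shown because each holds a match to the hormone receptor half-site AGGTCA. *Fabp1* also holds a direct repeat of half-sites. The search covered 250 bases before to 50 after each start in the RefSeq table (GRCm38.p6), with 10 such windows for 9 of the 10 genes, as *Fabp4* is not in that table and *Acsl1* has 2 windows. Below are the 250 bases before the start, 5′ to 3′ on the gene's strand, with matches in capitals. They are AGGTCA or its reverse complement for *Cd36* (chr5:17835897-17836146, minus strand) and *Slc27a2* (chr2:126552774-126553023, plus strand). For *Fabp1* (chr6:71199629-71199878, plus strand) they are, from the left, the direct repeat AGGNCANAGGNCA on the other strand, TATAAA, and AGGTCA on the other strand.
Fabp1: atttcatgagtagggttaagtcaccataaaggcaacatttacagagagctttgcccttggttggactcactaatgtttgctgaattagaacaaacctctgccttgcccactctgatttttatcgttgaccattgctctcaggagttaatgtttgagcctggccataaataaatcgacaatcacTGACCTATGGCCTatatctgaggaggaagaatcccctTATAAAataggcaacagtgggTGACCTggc
Cd36: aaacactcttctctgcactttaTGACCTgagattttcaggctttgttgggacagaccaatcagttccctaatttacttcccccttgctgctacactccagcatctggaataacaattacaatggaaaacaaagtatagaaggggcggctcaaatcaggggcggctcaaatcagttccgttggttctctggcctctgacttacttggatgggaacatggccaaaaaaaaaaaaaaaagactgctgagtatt
Slc27a2: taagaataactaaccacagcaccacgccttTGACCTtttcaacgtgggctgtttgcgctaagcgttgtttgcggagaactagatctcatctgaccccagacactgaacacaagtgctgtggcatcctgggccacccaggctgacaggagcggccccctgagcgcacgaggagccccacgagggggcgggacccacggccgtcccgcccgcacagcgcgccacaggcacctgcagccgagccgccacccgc

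The direct repeat AGGNCANAGGNCA, searched on both strands, is the motif to which PPAR and RXR pairs, and HNF4A, are known to bind. It occurred in 125 of 32851 windows (0.381%) and, among the 10 genes, in that of *Fabp1*, at 67 to 55 bases before the start. Its core AGGTCA, on both strands, was in 16.3% of all windows and in those of 3 of the genes, and the left copy in *Fabp1* overlaps the direct repeat. TATAAA on the sense strand was in 8.32% of windows and, among the 10 genes, in that of *Fabp1*. These matches describe the sequence and are not shown to be sites.

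*Fabp2* (NM_007980) is the intestinal binding protein. Its signal was 15.24, 14.67 and 14.58 in control mice and 14.58, 14.59 and 14.54 in soy mice. Control 1 alone was high, and the other 5 mice were within a narrow band. The change of -0.26 (SE 0.17, adjusted p = 0.634) was -0.05 without control 1, -0.38 on slide 1, which holds control 1, and -0.03 on slide 3. Of 10 enterocyte markers 6 were well above background on no array, and their summed level, led by *Lgals4*, was 11.57, 11.03 and 11.26 in control mice and 11.47, 12.02 and 11.71 in soy mice.

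*Fabp4* (NM_024406) is the binding protein of adipocytes and macrophages. Control mice had 11.27, 10.63 and 10.62 and soy mice 10.44, 10.75 and 10.87, again with control 1 as the highest. The change of -0.15 (SE 0.20, adjusted p = 0.824) went from -0.50 on slide 1 to 0.25 on slide 3 and turned to 0.07 without control 1. Its other probe gave -0.08 (adjusted p = 0.914), with the same change of sign between the slides (-0.36 and 0.38). Control 1 was thus the highest control for all 6 uptake and binding genes.

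Markers of the cells known to hold *Fabp4* were read from the same arrays. Among 6 adipocyte markers *Adipoq* and *Plin1*, which define the type, were well above background on no array, *Lep* and *Cidec* were so on all 6, and *Cfd* and *Retn* on 2 each. The summed level, led by *Lep*, was 11.39, 11.34 and 11.63 in control mice and 12.07, 11.39 and 11.31 in soy mice. Of 9 macrophage markers 8 were higher in the soy group (median 0.15), with none at an unadjusted p under 0.05. Their sums, led by *Cd5l*, were 15.296, 15.772 and 15.997 in control mice and 15.63, 15.88 and 16.18 in soy mice, with control 1 the lowest of all. Endothelial markers (9 genes, median -0.01, led by *Clec4g*) were 15.65, 15.61 and 15.62 in control mice and 15.66, 15.81 and 15.72 in soy mice.

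Activation held the 3 genes with the smallest p. *Acsl1* (NM_007981) is a main synthetase of the liver, placed at mitochondria and the endoplasmic reticulum, and a known PPARA target. Its signal was 16.28, 15.79 and 16.83 in control mice and 17.004, 17.03 and 17.12 in soy mice. The soy mice were tightly grouped (17.05 ± 0.06, SD, n = 3) above controls that were spread (16.30 ± 0.52, SD, n = 3), with control 3 near the soy level. The change was 0.76 (SE 0.24, 1.69-fold, 95% interval 0.21 to 1.30), with an unadjusted limma p of 0.0133 and an adjusted p of 0.277. Within slides it was 0.97 on slide 1 and 0.30 on slide 3, and with slide as a block 0.68 (adjusted p = 0.389).

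The other *Acsl1* probe showed the same spread among controls. It read 13.09, 13.15 and 14.70 in control mice and 14.66, 14.74 and 14.79 in soy mice, so that control 3 lay just above soy 1. Its change was 1.09 (SE 0.39, adjusted p = 0.349), with 1.54 on slide 1 and 0.09 on slide 3. Control 3 decided this value, since without it the change was 1.61 and passed (adjusted p = 0.0151), whereas the brightest probe then gave 1.02 (adjusted p = 0.0797).

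*Acsl3* (NM_028817), a synthetase of the endoplasmic reticulum and of growing lipid droplets, had the smallest p of the 10 genes. Its signal was 8.87, 9.10 and 8.94 in control mice and 9.90, 9.42 and 9.50 in soy mice. All 3 soy mice were above all controls, with soy 1 the highest. The change was 0.64 (SE 0.15, 1.55-fold, 95% interval 0.29 to 0.98), with an unadjusted limma p of 0.00295 and an adjusted p of 0.151. It was 0.92 on slide 1, 0.56 on slide 3 and 0.76 with slide as a block (adjusted p = 0.220). Started from the scanner's processed signal, scaled to the 75th percentile, it was 0.79 and passed (adjusted p = 0.0116), a start under which 13138 probes passed in all. The dimmer probe gave 0.42 (adjusted p = 0.511) with overlapping groups, and 0.86 and 0.06 on slides 1 and 3.

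Among the genes outside the lists whose arrays followed *Acsl3* most closely were *Slc29a3* (Pearson r = 0.99), *Orai1* (0.99) and *Ctf1* (0.99). They came from 13377 genes over 6 arrays that share their diet groups and slides, and their changes of 0.33, 0.35 and 0.31 did not pass. These correlations are a description with no test.

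*Acsl4* (NM_207625) prefers arachidonic acid and other polyunsaturated fatty acids. Its brightest probe read 13.45, 13.71 and 14.08 in control mice and 13.81, 13.56 and 13.54 in soy mice. Control 3 was the highest and control 1 the lowest, so the soy mice lay within the controls. The change was -0.11 (SE 0.17, adjusted p = 0.854, 95% interval -0.51 to 0.29), and it turned to 0.06 without control 3. Its 2 other probes gave 0.27 (adjusted p = 0.520) and 0.22 (adjusted p = 0.558), and *Acsl4* was the 1 gene among the 5 with several probes whose probes differed in sign. On slide 1 the 3 probes gave 0.23, 0.44 and 0.38, and on slide 3 -0.55, -0.01 and -0.04, so no direction is given for this gene.

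*Acsl5* (NM_027976), a synthetase of mitochondria and the endoplasmic reticulum linked to triglyceride synthesis, went the other way. Its signal was 14.00, 14.15 and 13.95 in control mice and 13.71, 13.36 and 13.62 in soy mice. All 3 soy mice were below all controls. The change was -0.47 (SE 0.12, 1.38-fold lower, 95% interval -0.76 to -0.18), with an unadjusted limma p of 0.00579 and an adjusted p of 0.195. It was -0.37 on slide 1, -0.33 on slide 3 and -0.35 with slide as a block (adjusted p = 0.392). Its fold change would not have passed the lower threshold at any p.

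**Figure D2:**
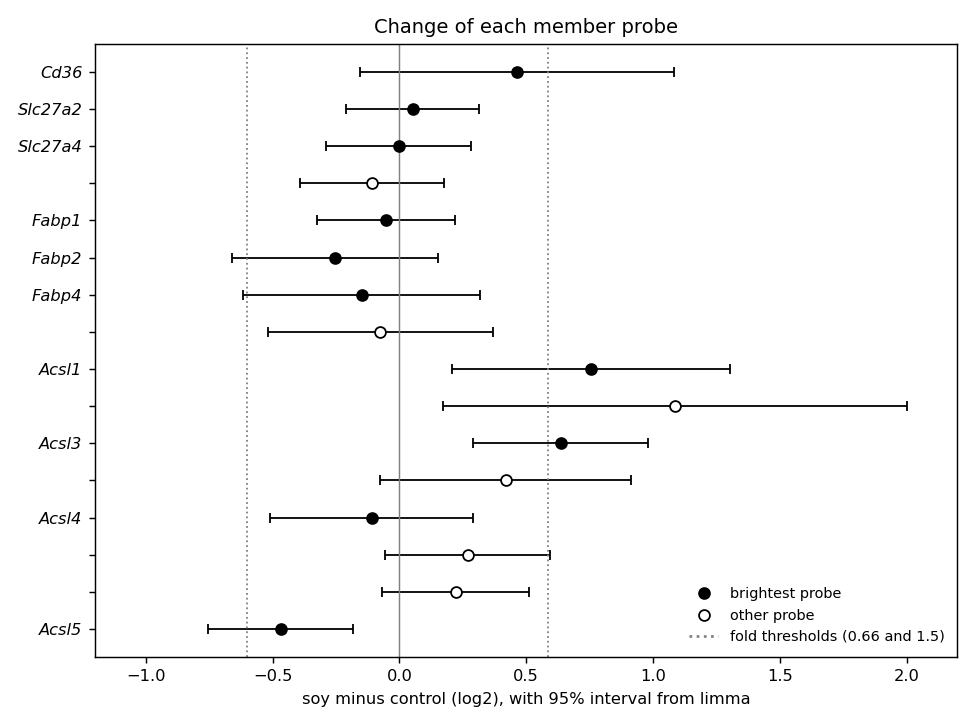
Change (soy minus control, log2) of each of the 16 probes with its 95% interval from limma, filled for the brightest probe of a gene and open for the others, with the fold thresholds dotted. The intervals of both *Acsl1* probes, of the brightest *Acsl3* probe and of *Acsl5* exclude 0, and the second *Slc27a4* probe is not well above background in soy mice.

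Within the slides the genes fell into 2 groups. For 6 of the 10 (*Cd36*, *Fabp1*, *Fabp2*, *Acsl1*, *Acsl3* and *Acsl5*) the change had the same sign on slide 1, on slide 3 and over all arrays. For the other 4 (*Slc27a2*, *Slc27a4*, *Fabp4* and *Acsl4*) it differed. The within-slide values rest on 1 soy mouse each. *Acsl5* moved least between the slides among the 3 genes without overlap, whereas *Acsl1* was larger on slide 1 than on slide 3, where its highest control, control 3, is the only control.

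**Figure D3:**
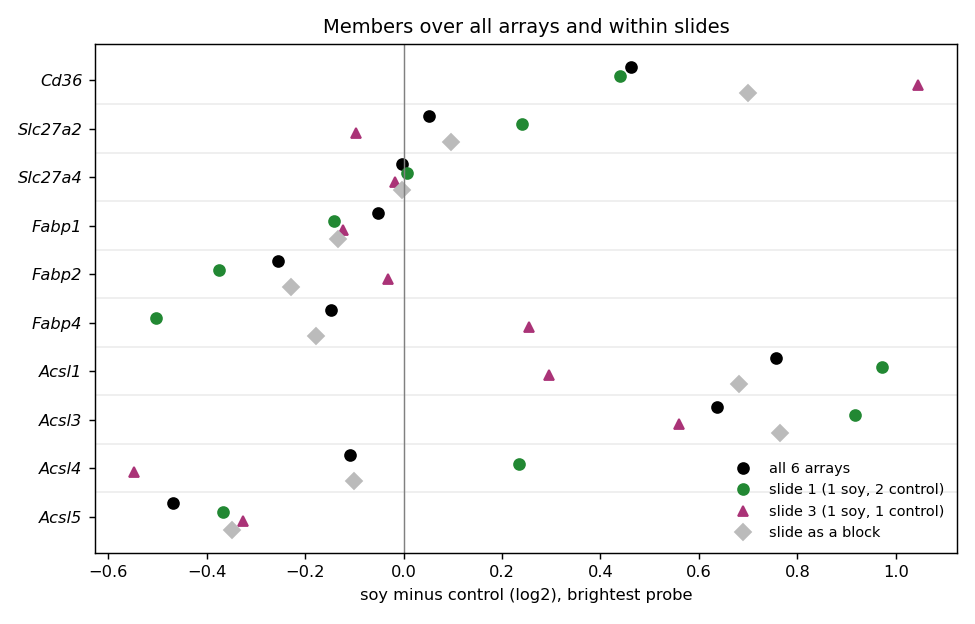
Change (soy minus control, log2) of the brightest probe of each gene over all 6 arrays, within slide 1 (1 soy against 2 control mice), within slide 3 (1 against 1) and with slide as a block. *Acsl1* and *Acsl3* lie right of 0 and *Acsl5* left of 0 over all arrays and within both slides. *Fabp4* and *Acsl4* change sides between the slides. The block value is a weighted mean of the within-slide values and is no further estimate.

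The rest of the Fabp, Acsl and Slc27a families (14 genes) also had none that passed. Of these 5 were higher and 9 lower (median -0.06), 3 were at an unadjusted p under 0.05 (14.3% of all genes) and 4 had groups that did not overlap (20.5% of all genes), while 5 of the 14 were well above background on all 6 arrays and 4 on none. The largest change was that of *Fabp5* (NM_001272097), the epidermal binding protein, which the study lists among genes it selected on these samples and which is no independent evidence. Its signal was 17.29, 15.99 and 15.44 in control mice and 13.38, 13.78 and 13.82 in soy mice. The soy mice were far below the controls, which were themselves spread. The change was -2.58 (SE 0.42, 5.98-fold lower, adjusted p = 0.0628), and it was -3.26 on slide 1, -1.62 on slide 3 and -2.56 with slide as a block (adjusted p = 0.230). *Fabp5* passed without control 1 (-2.06, adjusted p = 0.0384) and without control 3 (-2.98, adjusted p = 0.0431), but not without any of the other 4 arrays (0.161 to 0.185).

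The other family genes differed less between the groups. *Fabp7*, the brain form, was 9.32, 9.89 and 9.85 in control mice and 10.09, 10.63 and 10.20 in soy mice (0.62, SE 0.20, adjusted p = 0.291), without overlap. *Slc27a1*, the transport protein of muscle and fat, was 12.27, 11.66 and 10.99 against 11.24, 10.96 and 10.62 (-0.70, SE 0.31, adjusted p = 0.445), with overlap at control 3, and it was -0.39 without control 1 and -0.38 on slide 3. *Slc27a5*, the liver's bile acid-CoA ligase, was 17.06, 17.39 and 17.46 against 17.31, 17.22 and 17.41 (0.01, adjusted p = 0.985), and its sign turned without control 1 (-0.11). *Slc27a3* (-0.37, adjusted p = 0.447), *Fabp12* (-0.55, adjusted p = 0.686) and *Fabp3* (-0.22, adjusted p = 0.805) did not pass. With 1 array left out *Slc27a3* ranged from -0.479 to -0.22 and *Fabp12* from -1.09 to -0.19. The brightest *Acsl6* probe was well above background on all 3 control arrays and on none of the soy arrays, where its signal (6.41 on average, against 6.93) was lower by at least 1.18-fold (adjusted p = 0.332). All soy arrays carried fewer marks for well above background, and control 3 at 6.70 was marked while soy 1 at 6.69 was not.

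Beyond these families, 17 genes for other acyl-CoA synthetases and acyl-CoA binding proteins had a median change of 0.03, with 5 at an unadjusted p under 0.05 (14.3% of all genes, 20.1% of those well above background) and 6 without overlap (20.5% and 25.6%). By the brightest probe none passed, and by any probe 1 gene did. That gene was *Acss2* (NM_019811), which makes acetyl-CoA from acetate. Its dimmer probe read 12.17, 12.26 and 11.78 in control mice and 10.89, 10.61 and 10.55 in soy mice, a change of -1.38 (SE 0.16, 2.61-fold lower, adjusted p = 0.0236). The brightest probe gave nearly the same change with more spread among controls (15.14, 14.66 and 13.99 against 13.45, 13.28 and 12.98, -1.36, SE 0.28, adjusted p = 0.110), and passed without control 3 (adjusted p = 0.0425). The passing probe did so without control 3, but not without any of the other 5 arrays (0.0571 to 0.106) and not with slide as a block (-1.28, adjusted p = 0.0729), with -1.32 and -1.23 on slides 1 and 3.

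Among genes of this list that did not pass, *Acbd4*, an acyl-CoA binding protein, was higher in all soy mice (14.28, 14.34 and 14.47 against 13.86, 13.68 and 13.57, 0.66, SE 0.11, adjusted p = 0.0745). *Acbd5*, its peroxisomal relative, gave 0.61 (adjusted p = 0.295). *Acss3*, a mitochondrial synthetase for short acids, gave 0.60 (adjusted p = 0.0568), while its other probe was near background on all arrays.

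Lipases, their regulators, lipoprotein and scavenger receptors and caveolins (13 genes) had a median of -0.14, with 4 higher, 9 lower and none that passed. *Angptl4* (NM_020581), the lipoprotein lipase inhibitor and a known PPAR target, was 16.11, 15.94 and 16.14 in control mice and 15.49, 15.30 and 15.49 in soy mice. All soy mice were lower by a margin wider than the range within either group. The change was -0.64 (SE 0.11, 1.55-fold lower, adjusted p = 0.0689), with -0.54 and -0.65 on slides 1 and 3 and -0.58 with slide as a block (adjusted p = 0.237). The lipase *Lpl* (NM_008509) was 12.11, 12.54 and 11.92 against 11.87, 11.12 and 11.46 (-0.71, SE 0.22, adjusted p = 0.287), with -0.42 and -0.36 on its other probes. *Angptl8* (-0.31, adjusted p = 0.754) and the receptor *Vldlr* (-0.23, adjusted p = 0.832) had overlapping groups. The 8 pancreas markers, lipases among them, were all lower in soy mice (median -0.42, 4 at an unadjusted p under 0.05 beside 7.04% of all genes lower at that p, none passing), with sums led by *Cela1* of 15.16, 15.69 and 15.42 in control mice and 14.74, 14.98 and 14.57 in soy mice, and their part in the lipase values was not tested. Blood cell markers (8 genes, 7 higher, median 0.23, none at an unadjusted p under 0.05) were highest in soy 2, at 18.47, with sums led by *Hba-a1* of 17.66, 17.21 and 17.79 in control mice and 17.34 and 17.59 in soy 1 and soy 3.

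**Figure D4:**
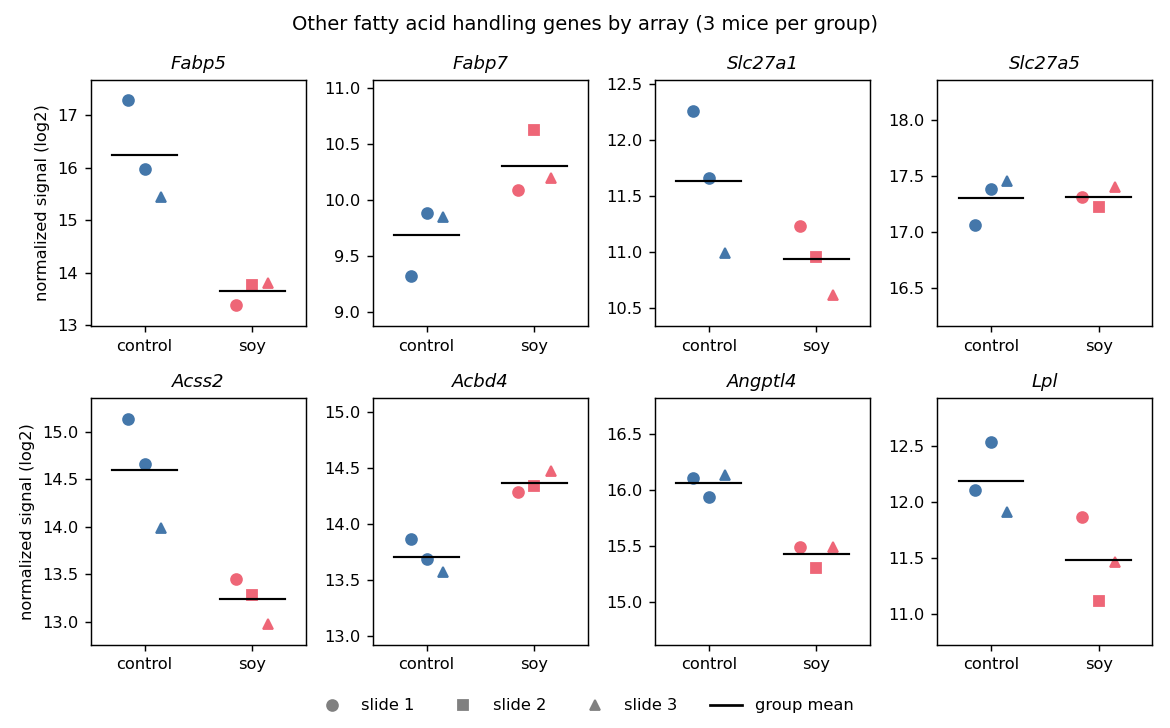
Normalized signal (log2) by mouse of the brightest probe of 8 other fatty acid handling genes (control in blue, soy in red), the shape giving the slide and the line the mean of 3 mice. Soy mice lie below all controls for *Fabp5*, *Acss2*, *Angptl4* and *Lpl*, above them for *Fabp7* and *Acbd4*, among them for *Slc27a5*, and for *Slc27a1* soy 1 lies above the lowest control.

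A list of 29 known PPARA targets was read from the same fit. It leaves out targets described above, such as *Angptl4*, lower in all soy mice without passing, and those among the 10 genes, *Acsl1* included. Most of them oxidise, split or transfer acyl-CoA, and others do not, such as *Cyp4a10* and *Cyp4a14*, which hydroxylate free fatty acids, the pyruvate dehydrogenase kinase *Pdk4*, the pantetheinase *Vnn1*, the droplet coat *Plin2*, the hormone *Fgf21* and the transcription factor *Creb3l3*. Of these, 27 were higher in soy mice and 2 lower, with a median of 0.59, and 7 passed on at least 1 probe, all higher (*Cyp4a14*, *Pdk4*, *Crat*, *Acot1*, *Acot2*, *Acaa1b* and *Acaa1a*). At an unadjusted p under 0.05 there were 23, of which 22 were higher, and 24 had groups that did not overlap, beside 14.3% and 20.5% of all genes. The 10 uptake, binding and activation genes had 3 and 3 on these counts. The list was written with earlier results of these arrays known, and the study itself lists *Cyp4a14*, *Pdk4*, *Crat*, *Acot1*, *Acot2*, *Acot3* and *Acaa1b* among genes it selected on these samples, so these counts are no independent evidence of the list's direction. The difference between the lists was not tested. With slide as a block *Cyp4a14* was the only 1 of the 7 that passed, and each of the other 6 lost the call without at least 1 array. The median of the 29 was 0.54 on slide 1, 0.61 on slide 3 and 0.55 with slide as a block, where those of the 10 were 0.12, -0.02 and -0.05.

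*Acot2*, a mitochondrial acyl-CoA thioesterase that reverses what the *Acsl* enzymes do, was 8.34, 8.30 and 8.73 in control mice and 9.93, 9.92 and 9.87 in soy mice. It rose by 1.44 (SE 0.13, 2.72-fold, adjusted p = 0.0130). It passed without any 1 control mouse (0.0151 to 0.0438), but not without soy 1 (0.0571), soy 2 (0.0703) or soy 3 (0.0556), nor with slide as a block (1.40, adjusted p = 0.0999). *Crat*, which moves short acyl groups from coenzyme A to carnitine, was 11.04, 10.40 and 11.48 in control mice and 12.78, 12.71 and 12.95 in soy mice. It rose by 1.84 (SE 0.25, 3.58-fold, adjusted p = 0.0388), and passed without control 2 or control 3 but not without control 1, soy 1, soy 2 or soy 3 (0.0953 to 0.143) nor with slide as a block (1.81, adjusted p = 0.137). Its dimmer probe, also well above background on all 6 arrays, gave 0.66 (1.58-fold, adjusted p = 0.117) and did not pass. *Acaa1a* passed on its dimmer probe (0.84, adjusted p = 0.0465, 0.0689 to 0.151 without 1 array) and not on the brightest (0.34, adjusted p = 0.426).

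Other targets named by their size did not pass, namely *Vnn1* (2.41, adjusted p = 0.163), *Acot3* (2.37, adjusted p = 0.0767), *Cyp4a10* (2.15, adjusted p = 0.228) and *Fgf21* (1.49, adjusted p = 0.241). Control 2 was the lowest mouse for *Vnn1* and *Cyp4a10*, and without it *Vnn1* was 1.72 and *Cyp4a10* 1.36. On slide 3 *Vnn1* was 1.25, *Acot3* 1.34 and *Cyp4a10* 0.97. Only 1 of the 3 control arrays had *Fgf21* well above background, and the change was 3.54 from the processed signal, so its size is poorly set. *Cpt1a*, the gate of mitochondrial uptake of acyl groups and singled out after its values were seen, was with *Acadl* (-0.0079) 1 of the 2 genes of the list that were lower in soy mice, at 15.28, 15.28 and 15.38 in control mice and 15.14, 14.59 and 14.68 in soy mice (-0.51, SE 0.15, adjusted p = 0.256).

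Of 11 receptor and coregulator genes (median 0.02) 2 passed (0.532% of all genes did), *Rxrg* on its brightest probe and *Nr1i3* on its dimmer one. The paper names both in a network of genes it called different on these samples, so these calls are no independent evidence. Both probes were higher in soy mice, by 1.44 and 0.87. With slide as a block the changes were 1.25 and 0.80, and both lost the call (adjusted p = 0.112 and 0.171). Both passed without control 3 but not without any of the other 5 arrays (0.0659 to 0.106 for *Rxrg*, 0.105 to 0.161 for *Nr1i3*). *Ppara* itself, named here after its values were seen, was 14.92, 14.71 and 14.24 in control mice and 14.91, 14.74 and 14.41 in soy mice (0.07, SE 0.20, adjusted p = 0.929). *Pparg* (NM_011146), the receptor that drives lipid storage in fat, was 9.86, 9.90 and 10.37 against 11.72, 10.91 and 11.26, without overlap (1.25, SE 0.23, 2.38-fold, adjusted p = 0.0811), with 1.84 and 0.89 on slides 1 and 3 and 1.43 with slide as a block (adjusted p = 0.175). *Hnf4a* (-0.25, adjusted p = 0.495) and *Rxrb* (-0.23, adjusted p = 0.475) did not pass.

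**Figure D5:**
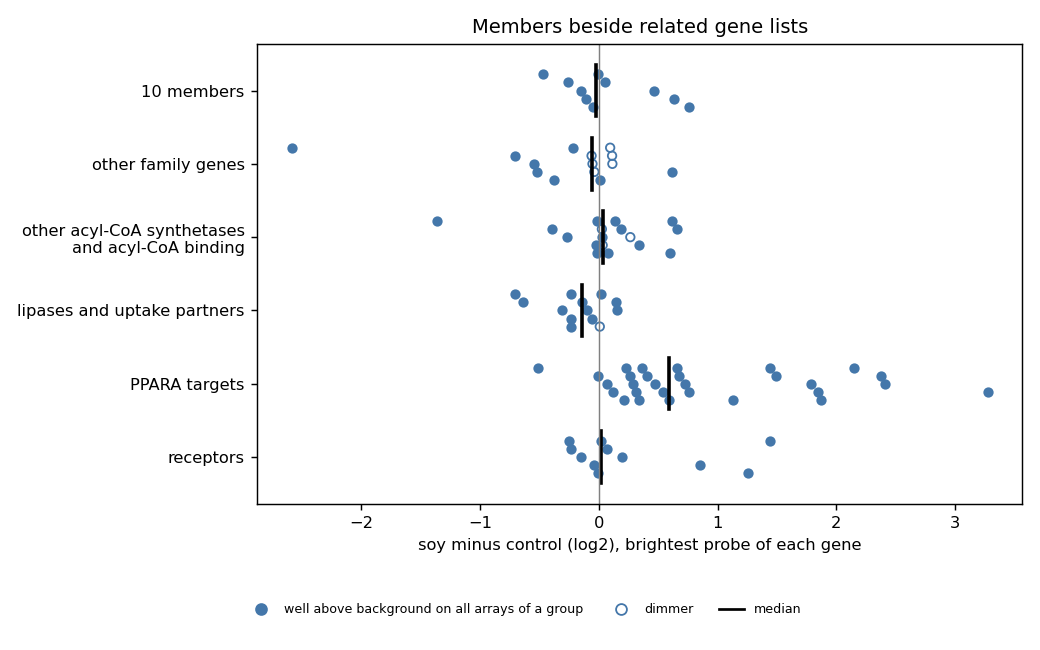
Change (soy minus control, log2) of the brightest probe of each gene in the 6 lists, 1 point per gene, with the list's median as a bar and open points for genes not well above background on all arrays of either group. The 10 members spread around 0 from -0.47 to 0.76, and the PPARA targets lie mostly right of 0, with a median of 0.59.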

How the data were processed

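RNA from the liver of each mouse was hybridised to a 1-colour Agilent array. The authors deposited raw scanner tables, written by Feature Extraction 11.5.1.1 per the file headers, which hold a median intensity for every spot and for the area around it. They also deposited log2 values, whose normalization is not given in the sources used here. Those values lay within 0.0561 of the ones used here and served as an alternative. Here the medians went through normexp (offset 50) on all spots, then, without control spots, through quantile normalization and a log2 transform. Outlier spots were dropped before averaging by probe. The 56605 probes were fitted together in limma 3.58.1 (R 4.3.3, lmFit and eBayes) for soy against control, with Benjamini-Hochberg adjustment, and the fit was tested on simulated data. The scanner software's mark for well above background was on 37010, 36366 and 38163 spots of control arrays 1 to 3. On soy arrays 1 to 3 it was on 31308, 31988 and 32498, fewer than on any control array. The lowest marked signal was 6.22 to 6.31 on control and 6.41 to 6.78 on soy arrays. Marks are thus not compared between the groups on equal terms, and the cause was not tested. The number of arrays limits the precision. RefSeq accessions gave a symbol to 58.3% of probes through a GRCm38.p6 table. The array design used another build, so probes are given no positions, and the coordinates printed are those of RefSeq promoters on GRCm38.p6.

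Named genes were all 10 members, family genes well above background on each array of a group, genes of the other lists that passed or had the 4 largest changes, and the 4 genes most correlated with the member of smallest p. A gene that this rule names is not reported here. The members and lists were chosen with earlier results of these data known. Lists and summed levels use the brightest probe of each gene. Alternatives were other background corrections, scalings and filters, eBayes settings, slide and replicate number as blocks, each slide alone, and each array left out. Figures were drawn with matplotlib 3.10.9 in Python 3.11.15 from tables made with pandas 2.3.3.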

Additional observations from a re-analysis of the deposited data

How the results depend on the processing

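The number of probes that passed, 198, was 77 with an offset of 16, 299 with a 75th percentile shift, 463 among probes well above background only, 13138 from the processed signal (90.8% higher, against 59.6%), 24 with slide as a block (45.8% higher) and 77 with a replicate block, and 23 to 199 without 1 array. The processed signal and the 75th percentile shift moved the median change of all probes from -0.01 to 0.125 and 0.134. Of the 10 genes 1 passed from the processed signal (*Acsl3*) and 0 to 1 without 1 array (*Acsl1*, without control 3). Of the other 14 family genes 7 passed from the processed signal, 1 with the 75th percentile shift, 1 among probes well above background (both *Fabp5*) and 0 to 1 without 1 array. The median of the 10 genes, -0.03, was 0.121 within slide 1 and -0.0543 to 0.0735 without 1 array. Same-numbered control and soy arrays correlated in their deviations at 0.122, -0.0604 and 0.0971, and differently numbered ones at -0.206 to 0.105. Arrays numbered 1 shared slide 1 and those numbered 3 shared slide 3, so these values cannot settle whether the numbers pair the mice. With the replicate block none of the 10 genes passed. The causes of these differences were not tested, and with 3 mice per group the arrays resolve small changes poorly.

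Some changes turned their sign. From the processed signal they were -0.0267 (*Slc27a2*), 0.00213 (*Slc27a4*) and -0.039 (*Slc27a5*), with the 75th percentile shift -0.0403 (*Slc27a2*), 0.0275 and 0.124 (*Slc27a4*, brightest and other probe) and -0.0805 (*Slc27a5*), and with cyclic loess -0.0085 (*Slc27a2*), 0.0125 (*Slc27a4*) and -0.0476 (*Slc27a5*). Within slide 1 they were 0.234 (*Acsl4*), 0.00736 (*Slc27a4*), 0.52 (*Fabp3*), 0.357 (*Angptl8*) and 0.048 (*Vldlr*). Within slide 3 they were -0.00577 and -0.037 (*Acsl4*, other probes), 0.254 and 0.385 (*Fabp4*, both probes), -0.0969 (*Slc27a2*), 0.727 (*Fabp12*) and -0.0527 (*Slc27a5*). Without 1 array *Fabp4* ranged from -0.257 to 0.0662 and its other probe from -0.271 to 0.0496, *Fabp1* from -0.15 to 0.0198, *Acsl4* from -0.258 to 0.0606, *Slc27a2* from -0.0342 to 0.113, *Slc27a4* from -0.0659 to 0.104, *Fabp3* from -0.475 to 0.012, *Slc27a5* from -0.11 to 0.0876, *Angptl8* from -0.616 to 0.0322, *Vldlr* from -0.647 to 0.0241 and *Ppara* from -0.125 to 0.214.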
